A study of Mus musculus with 17 samples.

Results

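The core circadian clock genes are the 10 genes Arntl, Clock, Npas2, Per1, Per2, Per3, Cry1, Cry2, Nr1d1 and Nr1d2, taken by gene name from a table of 48795 genes counted by RNA-seq in mouse kidney cortex. All 10 were in the table. They were chosen from earlier results of these same samples, in which their levels were known, so that their values are given below as a description without a test. The 17 samples fell into 4 groups. WT (5 libraries) carried the genotype label wild type. GCERAd (5 libraries) carried the label ATF4 KO. These were mice with Ggt/CreER and Atf4 fl/fl, in which a tamoxifen-inducible Cre under the gamma-glutamyltransferase promoter acts in proximal tubules. They had received tamoxifen (20 mg/mL) when 6 weeks old, on 2 days. TRACK (3 libraries) was a transgenic kidney cancer model, and GCERAdT (4 libraries) carried the label TRACK-ATF4 KO. Mice were fasted in metabolic cages before collection a month later, as far as the study's methods describe it. The hour of collection, the sex, and whether WT, TRACK or GCERAdT mice received tamoxifen were not given in the sources used here, so that for GCERAdT the label alone stands for a deletion of Atf4. The question addressed by the design was how the loss of the transcription factor ATF4 from proximal tubules, with and without the TRACK transgene, altered the cortex transcriptome.

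The circadian clock of mammalian cells is a loop of transcription. ARNTL (BMAL1) pairs with CLOCK, or with its relative NPAS2, and activates genes through E-boxes, among them the Per and Cry genes, whose proteins return to repress the pair. In a second loop, the REV-ERB receptors NR1D1 and NR1D2 repress Arntl through RORE elements, where the ROR receptors activate it. Transcripts of the activator arm (Arntl, Npas2) and of the repressor arms therefore peak at different times of day, and in kidney the loop drives daily rhythms of transport and metabolism.

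Strings of the kind that clock factors bind were searched for in the members' own promoters. Windows of 250 bases before the transcription start were taken from RefSeq (GRCm38.p6), which had an entry for 9 of the 10 members. A window each of Arntl, Per1, Cry1 and Per3 is shown. Between them these windows hold each of the 3 strings searched for that occurred in a member. Both strands were searched, and a match is a string of letters, not a shown binding site. Capitals mark the E-box CACGTG in Per1 and Cry1, the D-box TTANGTAA in Per3, and the RORE core TNGGTCA in Arntl and, on the opposite strand, in Per3.
Arntl: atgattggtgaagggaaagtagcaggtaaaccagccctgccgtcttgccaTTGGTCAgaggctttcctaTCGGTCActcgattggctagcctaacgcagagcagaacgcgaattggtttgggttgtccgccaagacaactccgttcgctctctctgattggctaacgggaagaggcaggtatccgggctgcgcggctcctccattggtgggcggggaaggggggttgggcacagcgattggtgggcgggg
Per1: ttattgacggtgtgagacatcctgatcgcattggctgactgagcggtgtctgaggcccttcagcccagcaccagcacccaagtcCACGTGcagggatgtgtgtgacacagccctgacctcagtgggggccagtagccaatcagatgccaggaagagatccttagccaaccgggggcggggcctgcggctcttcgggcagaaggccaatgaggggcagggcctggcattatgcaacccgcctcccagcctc
Cry1: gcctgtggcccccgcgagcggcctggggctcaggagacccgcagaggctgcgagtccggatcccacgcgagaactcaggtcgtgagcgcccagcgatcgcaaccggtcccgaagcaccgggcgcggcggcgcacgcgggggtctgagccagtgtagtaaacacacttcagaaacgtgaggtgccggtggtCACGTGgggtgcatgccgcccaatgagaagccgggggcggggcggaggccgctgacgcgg
Per3: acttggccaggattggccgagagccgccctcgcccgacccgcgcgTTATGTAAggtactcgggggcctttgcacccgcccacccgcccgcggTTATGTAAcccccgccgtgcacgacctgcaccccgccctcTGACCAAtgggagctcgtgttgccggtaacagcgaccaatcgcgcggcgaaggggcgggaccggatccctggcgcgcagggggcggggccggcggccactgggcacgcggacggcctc
The Arntl window is chr7:113207215-113207464 on the plus strand, with RORE-like strings starting 200 and 181 bases before the start. The Per1 window shown is chr11:69098699-69098948 on the plus strand, with an E-box at 166 bases. Another Per1 window, chr11:69099902-69100151, held none of the 3 strings. The Cry1 window is chr10:85185055-85185304 on the minus strand, with an E-box at 60 bases. The Per3 window is chr4:151044666-151044915 on the minus strand, with D-boxes at 205 and 158 bases and a RORE-like string at 118 bases. Cry2 also held a RORE-like string, and the windows of Clock, Npas2, Nr1d1 and Nr1d2 held none of the 3 strings. Among all 32817 promoter windows of the same length, 6.02% held the E-box, 2.06% the D-box and 9.19% the RORE-like string. The ATF4-related strings TGATGNAA, the core of the C/EBP-ATF response element, and TGACGTCA, the cyclic AMP response element, were in 0 member windows, beside 3.45% and 1.55% of all windows.

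Several properties of the whole series touch every value below. Totals on genes were between 53688512 and 71364561 counts per sample, and the lowest count of any member in any sample was 76 (Npas2). Xist was at 147 to 422 CPM in WT and at most 6.06 CPM elsewhere, whereas Ddx3y was at 0 CPM in WT and at 49.7 to 79.9 CPM elsewhere, so that sex and genotype cannot be told apart in any comparison with WT. Atf4 itself was at 74.8 to 101 CPM in WT, 55.8 to 75.1 CPM in GCERAd, 77.6 to 93.4 CPM in TRACK and 80.6 to 104 CPM in GCERAdT. Atf4 was therefore not lower in the libraries labelled GCERAdT than in TRACK (edgeR log2 fold change 0.17, standard error 0.11, adjusted p = 0.367), which goes against their label. In GCERAd against WT it was lower by a small amount, and the groups overlapped (edgeR log2 fold change -0.38, standard error 0.11, adjusted p = 0.0218). GCERAd 4 and 5 stood apart from GCERAd 1, 2 and 3. The methods name fewer mice per cohort than there are libraries in WT and GCERAd, so that some may be repeat libraries of 1 mouse. WT 1 and 2, GCERAd 2 and 3, and GCERAdT 2 and 3 were taken as possible repeats. The number of mice gives no such reason for GCERAdT, the labels name no such pairs, and whether they are repeats was not tested. Some library names in the study's sequencing summary repeat another name with a letter added. That summary does not tie its names to the labels used here. The libraries also fell into 2 kinds by the share of counts on processed pseudogenes, 0.032 to 0.038% in 8 and 0.0574 to 0.0784% in 9, and all 3 TRACK libraries were of the higher kind. Proximal tubule markers (8 of 8 with counts in every library) summed to 7914 to 9548 CPM in WT and 4379 to 5273 CPM in TRACK. The sum was 7768 to 12203 CPM in GCERAd. In GCERAdT it was 5197 to 6038 CPM, below every WT and GCERAd library. The markers of this list did not move together. In TRACK, Lrp2, Slc34a1, Slc5a12 and Miox were lower than in WT without overlap, whereas Cubn, Slc5a2, Aqp1 and Ggt1 overlapped with WT. In cortex tissue, fewer cells of a type and less RNA per cell cannot be told apart.

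Per length of transcript, Nr1d1 was the most abundant member in WT cortex with 37.9 ± 2.85 FPKM (SD, n = 5), followed by Nr1d2 with 15.7 ± 0.856 FPKM. Per1 and Clock followed at 5.6 ± 1.09 and 5.29 ± 0.34 FPKM, which did not differ beyond their spread. Cry2 stood at 2.17 ± 0.219 FPKM. Arntl, Per2, Npas2, Per3 and Cry1 had WT means between 1.25 and 0.808 FPKM, near the minimum of 1 FPKM used for testing.

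In the activator arm, Arntl and Npas2 were highest in GCERAdT and lowest in GCERAd and TRACK, with WT between them. Arntl (ENSMUSG00000055116, GRCm38 chr7:113207465-113314126, plus strand) encodes BMAL1, the partner without which the loop stops. It had 9.58, 6.84, 9.9, 10.5 and 10.2 CPM (counts scaled to library size by edgeR's TMM method) in WT 1 to 5 and 4.14, 3.1, 3.81, 2.47 and 3.99 CPM in GCERAd 1 to 5. It had 2.28, 2.34 and 4.79 CPM in TRACK and 19.9, 15.7, 14.3 and 20 CPM in GCERAdT. Only GCERAd and TRACK overlapped. The ratio of the highest to the lowest group mean was 5.57.

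Npas2 (ENSMUSG00000026077, GRCm38 chr1:39193731-39363236, plus strand), which can stand in for CLOCK as the partner of BMAL1, had 6.6, 4.16, 6.39, 5.24 and 4.96 CPM in WT and 2.85, 2.19, 2.21, 1.39 and 3.37 CPM in GCERAd. It had 2.65, 2.04 and 3.81 CPM in TRACK and 27.0, 16.3, 11.8 and 19.8 CPM in GCERAdT. As for Arntl, GCERAd and TRACK alone overlapped, and the GCERAdT mean of 18.7 ± 6.42 CPM (SD, n = 4) was 7.79 times the GCERAd mean of 2.4 ± 0.749 CPM (SD, n = 5). Clock (ENSMUSG00000029238, GRCm38 chr5:76209868-76304792, minus strand), the third member of the arm and the other partner of BMAL1, varied less. Its means were 72.6 ± 4.67 CPM in WT, 67.8 ± 6.39 CPM in GCERAd, 61.5 ± 1.25 CPM in TRACK (SD, n = 3) and 89.9 ± 7.22 CPM in GCERAdT. GCERAdT lay above every other group for Clock, but WT and GCERAd overlapped, as did GCERAd and TRACK.

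**Figure D1:**
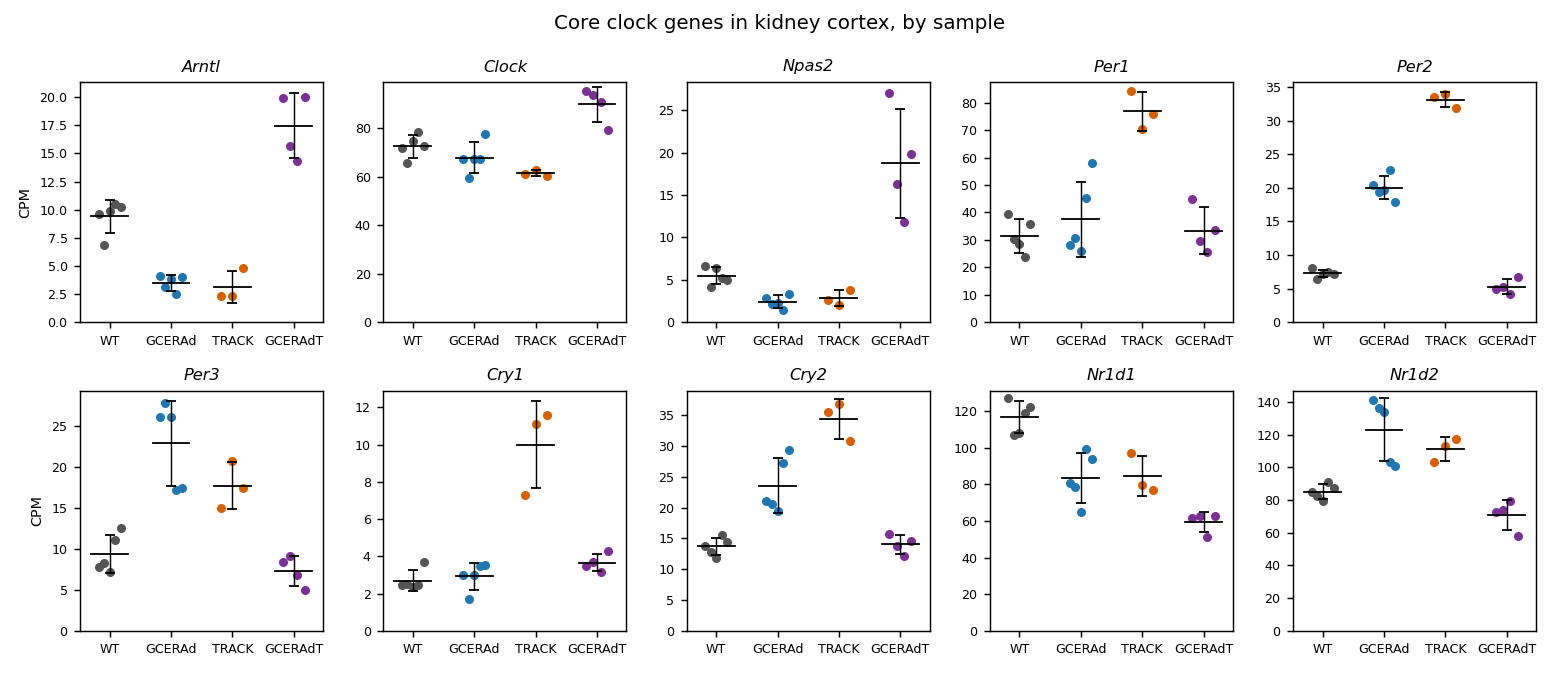
CPM (TMM-scaled, linear axes from 0) of the 10 members, 1 panel per gene, with 1 point per sample in WT, GCERAd, TRACK and GCERAdT; the horizontal line is the group mean and the bar its SD. Arntl and Npas2 are highest in GCERAdT (14.3 to 20 and 11.8 to 27.0 CPM), where Per2 is lowest (4.14 to 6.78 CPM), and Per1, Per2, Cry1 and Cry2 are highest in TRACK.

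In the Per/Cry arm, TRACK held the highest mean for 4 of 5 genes. Per2 (ENSMUSG00000055866, GRCm38 chr1:91415982-91459324, minus strand), a repressor of the BMAL1 pair, gave the clearest separation of the arm. It had 8.0, 6.43, 7.17, 7.52 and 7.12 CPM in WT and 20.4, 19.4, 19.6, 22.6 and 17.9 CPM in GCERAd. It had 33.5, 33.9 and 31.8 CPM in TRACK and 5.0, 5.22, 4.14 and 6.78 CPM in GCERAdT. TRACK lay above GCERAd and GCERAd above WT without overlap, while WT and GCERAdT overlapped. The TRACK mean was 6.26 times the GCERAdT mean.

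Cry2 (ENSMUSG00000068742, GRCm38 chr2:92403646-92434043, minus strand), which forms the repressor complex with the PER proteins, ranked TRACK above GCERAd and GCERAd above the rest as Per2 did. It had 13.8, 12.8, 11.9, 15.5 and 14.5 CPM in WT and 21.1, 20.6, 19.5, 27.2 and 29.4 CPM in GCERAd. It had 35.6, 36.9 and 30.8 CPM in TRACK and 15.8, 13.7, 12.2 and 14.6 CPM in GCERAdT. These steps were without overlap, and WT overlapped GCERAdT.

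Per3 (ENSMUSG00000028957, GRCm38 chr4:151003652-151044665, minus strand), a paralog whose loss alone leaves rhythms largely intact, was highest in GCERAd instead. It had 7.79, 8.35, 7.24, 11.1 and 12.6 CPM in WT and 26.1, 27.9, 26.1, 17.2 and 17.4 CPM in GCERAd. It had 15.0, 20.7 and 17.5 CPM in TRACK and 8.36, 9.2, 6.83 and 4.94 CPM in GCERAdT. GCERAd and TRACK overlapped, with GCERAd 4 and 5 within the TRACK range, and WT overlapped GCERAdT.

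Per1 and Cry1 set TRACK apart from the 3 other groups. Per1 (ENSMUSG00000020893, GRCm38 chr11:69095217-69109960, plus strand), a repressor that is also an early-response gene, had 39.3, 30.2, 28.4, 23.8 and 35.9 CPM in WT and 28.2, 30.7, 25.8, 45.1 and 58.0 CPM in GCERAd. It had 84.4, 70.4 and 75.9 CPM in TRACK and 45.0, 29.6, 25.4 and 33.6 CPM in GCERAdT. The 3 groups other than TRACK overlapped one another. Within GCERAd, libraries 4 and 5 were highest in Per1. They were also highest in Fkbp5, at 212 and 206 CPM beside 49.3 to 75.9 CPM in GCERAd 1 to 3. Tsc22d3 was at 47.0 and 78.4 CPM in them, beside 37.5 to 44.5 CPM. Fkbp5 and Tsc22d3 respond to glucocorticoids and were added after their values were seen. In TRACK, Fkbp5 was at 218 to 297 CPM and Tsc22d3 at 75.8 to 89.5 CPM. GCERAdT 4 had the highest Fkbp5 of its group (106 CPM) with Per1 at 33.6 CPM. GCERAdT 1 had the highest Per1 (45.0 CPM) with Fkbp5 at 49.4 CPM. In WT 2 and WT 1 Fkbp5 was at 106 and 98.5 CPM, with Per1 at 30.2 and 39.3 CPM. The part of Fkbp5 and Tsc22d3 in the level of Per1 was not tested.

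Cry1 (ENSMUSG00000020038, GRCm38 chr10:85131700-85185064, minus strand), a repressor of the BMAL1 pair, had 2.46, 2.5, 2.34, 2.49 and 3.71 CPM in WT and 2.99, 1.7, 3.0, 3.46 and 3.53 CPM in GCERAd. It had 7.32, 11.1 and 11.6 CPM in TRACK and 3.51, 3.69, 3.17 and 4.31 CPM in GCERAdT. Every TRACK sample exceeded every other sample, and the ranges of the remaining groups overlapped.

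The REV-ERB genes took different orders over the groups. Nr1d1 (REV-ERB alpha; ENSMUSG00000020889, GRCm38 chr11:98767932-98775333, minus strand), the repressor of Arntl, had 127, 107, 108, 119 and 122 CPM in WT and 80.7, 78.2, 64.8, 99.4 and 93.9 CPM in GCERAd. It had 96.8, 79.6 and 76.9 CPM in TRACK and 61.4, 62.4, 51.2 and 62.4 CPM in GCERAdT. WT was above every other group and GCERAdT below, with GCERAd and TRACK overlapping between them. Nr1d1 shares 263 of its 3077 exon bases (8.5%) with Thra on the opposite strand; Thra was lower in GCERAd than in WT (log2 fold change -0.29, standard error 0.05, edgeR adjusted p = 0.00213), as Nr1d1 was, whereas in GCERAdT it was higher than in GCERAd (0.45, standard error 0.07, edgeR adjusted p = 0.00194) and at 0.33 against TRACK (standard error 0.09, edgeR adjusted p = 0.0689), where Nr1d1 was lower. Whether the counting used strand was not given in the sources used here.

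Nr1d2 (REV-ERB beta; ENSMUSG00000021775, GRCm38 chr14:18204054-18239127, minus strand), which acts on the same elements, had 84.8, 82.4, 79.1, 91.3 and 87.1 CPM in WT and 141, 136, 134, 103 and 101 CPM in GCERAd. It had 103, 113 and 117 CPM in TRACK and 72.4, 73.7, 79.3 and 57.8 CPM in GCERAdT. Thus in GCERAd and TRACK Nr1d2 was higher and Nr1d1 lower than in WT, without overlap in any of these 4 cases. In GCERAdT both were low.

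Set in order of their means of log2(CPM + 0.5), the 4 groups took 7 different orders over the 10 members. GCERAdT was highest for all 3 genes of the activator arm. TRACK was highest for Per1, Per2, Cry1 and Cry2, GCERAd for Per3 and Nr1d2, and WT for Nr1d1. GCERAdT was lowest for Per2, Per3, Nr1d1 and Nr1d2, TRACK for Arntl and Clock, GCERAd for Npas2, and WT for Per1, Cry1 and Cry2. The difference between the highest and the lowest group mean on the log2 scale ran from 0.54 (Clock) to 2.71 (Npas2), and the median over 12208 genes was 0.41. Arntl and Per2 placed GCERAdT and TRACK at opposite ends, with WT next to GCERAdT and GCERAd next to TRACK. Clock took the same order as Arntl, although WT overlapped GCERAd and GCERAd overlapped TRACK. Npas2 also had GCERAdT and WT highest, with GCERAd below TRACK at the far end, although the values of these 2 groups overlapped. The hour of collection of each group was not given in the sources used here, so that a difference in phase, in level or in the hour of collection cannot be told apart.

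Ratios of counts within a sample need no scaling between samples. The log2 ratio of Arntl to Per2 was 0.26, 0.09, 0.47, 0.49 and 0.52 in WT 1 to 5 and -2.3, -2.65, -2.36, -3.19 and -2.17 in GCERAd 1 to 5. It was -3.87, -3.86 and -2.73 in TRACK and 2.0, 1.59, 1.79 and 1.56 in GCERAdT. Arntl thus had more counts than Per2 in every WT and GCERAdT sample and fewer in every GCERAd and TRACK sample. The log2 ratio of Arntl to Nr1d1 had means of -3.65 ± 0.21 in WT, -4.58 ± 0.47 in GCERAd, -4.83 ± 0.74 in TRACK and -1.78 ± 0.18 in GCERAdT, and that of Arntl to Per3 had means of 0.02 ± 0.34, -2.71 ± 0.38, -2.58 ± 0.65 and 1.28 ± 0.53 in the same order (SD, n = 5, 5, 3 and 4). In all 3 ratios GCERAdT lay above WT and WT above GCERAd without overlap, and GCERAd overlapped TRACK.

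**Figure D2:**
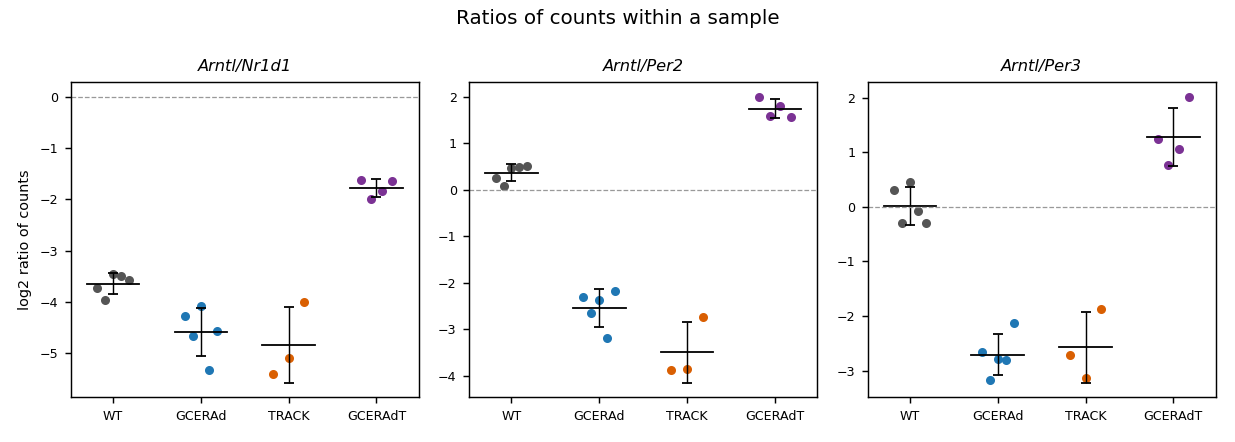
Log2 ratio of counts of Arntl to Nr1d1, to Per2 and to Per3 in each sample (points) of the 4 groups, with group means (lines) and SD (bars); the dashed line marks equal counts. For Arntl to Per2 the GCERAdT samples sit between 1.56 and 2.0 and the TRACK samples between -3.87 and -2.73.

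The 4 comparisons that the design holds are given next for the members, as edgeR log2 fold changes with standard errors. A gene was said not to overlap where every sample of one group lay above every sample of the other, and the share of all tested genes that did so is printed beside each count. Comparisons that share a group are not independent of each other. In GCERAd against WT, which asks for the effect of the ATF4 KO genotype, 4 of 10 members were higher without overlap (all genes: 9.63%) and 3 were lower (all genes: 10.5%), with a median log2 fold change of 0.20 over the 10. Per2, Per3, Cry2 and Nr1d2 were higher, by 1.48 (standard error 0.09), 1.30 (0.19), 0.79 (0.13) and 0.54 (0.1) on the log2 scale. Arntl, Npas2 and Nr1d1 were lower, with log2 fold changes of -1.41 (0.17), -1.17 (0.23) and -0.47 (0.11). Clock, Per1 and Cry1 overlapped. Cry1 was below 1 FPKM in both groups, and its log2 fold change of 0.12 (0.23) was fitted without the FPKM minimum, whereas the other 9 members passed the minimum. The sizes of the differences of Per1, Per3, Cry2, Nr1d1 and Nr1d2 depended on which GCERAd libraries were used. Without GCERAd 1, 2 and 3 the log2 fold changes were 0.72 for Per1, 0.89 for Per3, 1.06 for Cry2, -0.26 for Nr1d1 and 0.27 for Nr1d2. Without GCERAd 4 and 5 they were -0.14, 1.52, 0.59, -0.63 and 0.71 in the same order, with the opposite sign for Per1.

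In GCERAdT against TRACK, the same label contrast within the cancer model, all 10 members passed the minimum and all 10 were apart, 3 higher (all genes: 10.9%) and 7 lower (all genes: 12.3%), with a median of -0.92. The 3 genes of the activator arm were higher in the libraries labelled GCERAdT, Npas2 by 2.73 (0.31), Arntl by 2.48 (0.28) and Clock by 0.56 (0.09). Per2 was lowest with -2.64 (0.15), followed by Cry1 with -1.44 (0.2), Cry2 with -1.28 (0.11), Per3 with -1.26 (0.2) and Per1 with -1.19 (0.17). Nr1d2 and Nr1d1 had -0.64 (0.11) and -0.50 (0.11). Since Atf4 was not lower in GCERAdT, these directions belong to the label. Against the GCERAd contrast, Arntl, Npas2, Per2, Per3, Cry2 and Nr1d2 went the opposite way in every sample, and Nr1d1 was lower in both. The GCERAd contrast includes WT, and with it the difference in sex, whereas GCERAdT against TRACK does not.

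In TRACK against WT, which asks for the effect of the transgene, all 10 members passed the minimum and were apart, 6 higher (all genes: 22.4%) and 4 lower (all genes: 22.0%), with a median of 0.64. Per2 was higher by 2.19 (0.08), Cry1 by 1.89 (0.21), Cry2 by 1.33 (0.1), Per1 by 1.29 (0.14), Per3 by 0.91 (0.19) and Nr1d2 by 0.38 (0.07). Arntl, Npas2, Nr1d1 and Clock had log2 fold changes of -1.58 (0.27), -0.95 (0.24), -0.47 (0.1) and -0.24 (0.07). With library kind as a covariate, chosen after seeing the data, those of Arntl, Npas2 and Clock were -1.12, -0.55 and -0.09. That fit in effect sets TRACK against WT 2 alone, the only WT library of the higher pseudogene kind.

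In GCERAdT against GCERAd, which sets the transgene within the ATF4 KO label, all 10 members passed the minimum, 3 were higher without overlap (all genes: 10.4%) and 5 lower (all genes: 9.0%), with a median of -0.35. Npas2 was higher by 2.94 (0.28), Arntl by 2.30 (0.17) and Clock by 0.39 (0.09). Per2, Per3, Nr1d2, Cry2 and Nr1d1 had log2 fold changes of -1.93 (0.14), -1.66 (0.21), -0.81 (0.13), -0.76 (0.14) and -0.51 (0.13). Per1 and Cry1 overlapped, with -0.19 (0.25) and 0.31 (0.23). The same 5 genes as in GCERAd against WT moved with the choice of GCERAd libraries. Without GCERAd 1, 2 and 3 the log2 fold changes were -0.63 for Per1, -1.24 for Per3, -1.01 for Cry2, -0.71 for Nr1d1 and -0.53 for Nr1d2, and without GCERAd 4 and 5 they were 0.24, -1.86, -0.54, -0.33 and -0.95. Thus the transgene contrast had the opposite sign under the ATF4 KO label from that in WT for Arntl, Npas2, Clock, Per2, Per3, Cry2 and Nr1d2. Each was without overlap in both contrasts. This difference was not tested, and since it includes WT, sex and genotype cannot be told apart in it.

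**Figure D3:**
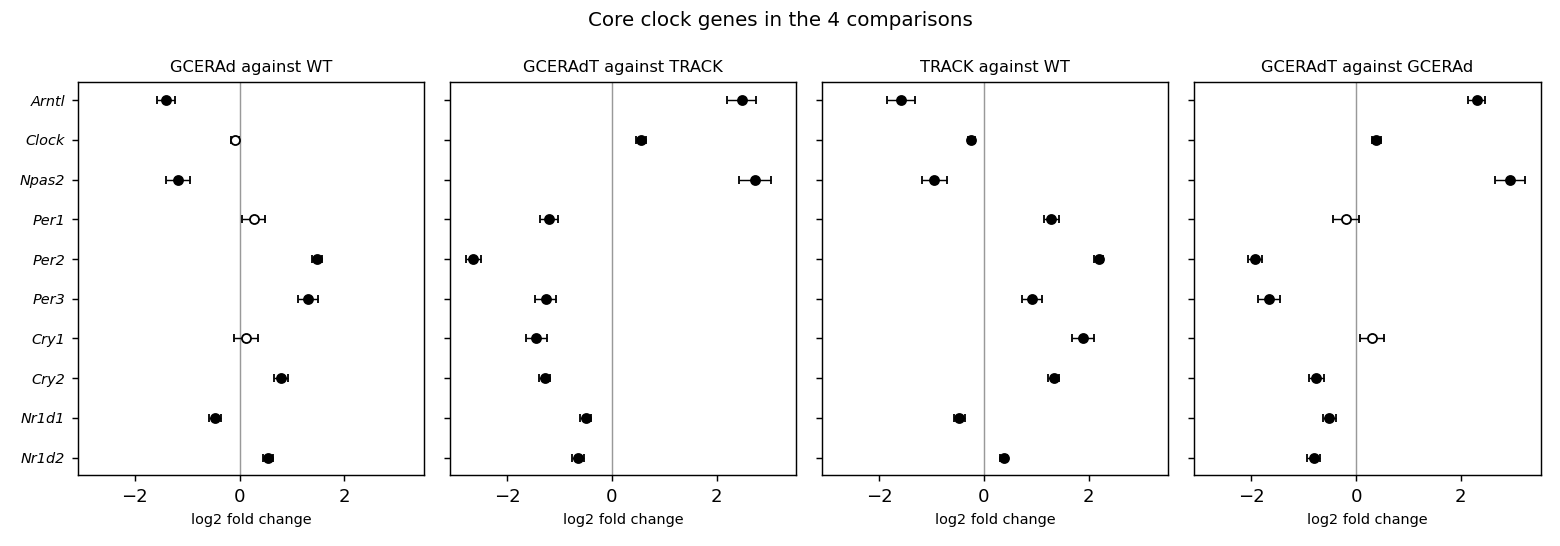
Log2 fold change of the 10 members in each of the 4 comparisons (first group over second, edgeR), with bars of 1 standard error; filled points are members whose samples did not overlap between the groups, open points those that did. The activator genes lie to the left of 0 in GCERAd and TRACK against WT (Arntl -1.41 and -1.58) and to the right in both comparisons with GCERAdT (2.48 and 2.30).

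Beyond the members, 21 other genes of the clock pathway were tested by quasi-likelihood in edgeR, with p adjusted over all genes by the Benjamini-Hochberg method. This list was also written with earlier results of these data known. In GCERAd against WT 16 of the 21 passed the FPKM minimum, 7 were called higher (all genes: 14.1%) and 1 lower (all genes: 13.5%), and the median log2 fold change was 0.18. Dbp, Tef and Hlf, the PAR bZIP factors that act on D-boxes, were higher, and Nfil3, which competes for the same element, was lower. Dbp had 40.8 to 59.9 CPM in WT and 76.2 to 137 CPM in GCERAd, higher by 1.16 on the log2 scale (standard error 0.16, edgeR adjusted p = 0.000326). Tef rose by 0.88 (0.06, adjusted p = 1.4e-06, edgeR) and Hlf by 0.52 (0.1, adjusted p = 0.00371, edgeR), whereas Nfil3 stood at -1.59 (0.21, adjusted p = 0.000238, edgeR). Ciart, a repressor of the BMAL1 pair, was higher by 1.92 (0.41, adjusted p = 0.00492, edgeR), but its groups overlapped, and without GCERAd 1, 2 and 3 it was not called. The ROR receptor gene Rora was higher by 0.75, the deubiquitinase Usp2 by 0.55 and the F-box protein gene Fbxw11 by 0.32. All 8 calls were kept when any single library was omitted. The median over all tested genes lay between -0.01 and 0.02 in this and the following comparisons.

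In GCERAdT against TRACK 17 genes were tested, 1 was called higher (all genes: 2.81%) and 8 lower (all genes: 4.28%), with a median of -0.23. Dbp had 95 to 109 CPM in TRACK and 9.01, 15.1, 13.2 and 9.48 CPM in GCERAdT, which is -3.13 on the log2 scale (0.18, edgeR adjusted p = 4.82e-05). Ciart was at -3.99 (0.3, adjusted p = 0.000129, edgeR), Bhlhe41, a repressor at E-boxes, at -1.95, Usp2 at -1.73 and Tef at -1.46. These 5 were called whichever library was omitted. In every comparison that tested it, Bhlhe41 passed the FPKM minimum only through TRACK (mean 9.87 CPM, beside 2.54 CPM in GCERAdT). Ciart passed it here only through TRACK as well (mean 12.3 CPM, beside 0.769 CPM in GCERAdT). Hlf, Bhlhe40, Cipc and Nfil3 were also called, with log2 fold changes of -0.56, -0.57, -0.44 and 0.98, but each lost its call when a single library was left out. That was so for Cipc without TRACK 2 (adjusted p = 0.0595, edgeR), for Bhlhe40 without TRACK 1, 2 or 3 or GCERAdT 3 (highest adjusted p = 0.0904), for Hlf without TRACK 1 or 2 or GCERAdT 1, 2 or 3 (highest adjusted p = 0.102), and for Nfil3 without TRACK 1, 2 or 3 or GCERAdT 1 or 2 (highest adjusted p = 0.0851). Without TRACK 2, 5 genes of the list were called in place of 9.

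In TRACK against WT 17 were tested, 10 were called higher (all genes: 23.0%) and 2 lower (all genes: 22.6%), with a median of 0.34. Ciart was higher by 2.79 (0.36, adjusted p = 0.000245, edgeR), Dbp by 1.01, Tef by 0.99, Usp2 by 0.84, Rora by 0.71, Hlf by 0.57 and Fbxw11 by 0.35. Nfil3 was lower, with a log2 fold change of -0.77. With library kind as a covariate, Nfil3 was at -0.31 and Hlf at 0.49, neither of them called. In that fit 8 genes of the list were called in place of 12. It rests on WT 2, the only WT library of the higher pseudogene kind. Bhlhe41, Cipc and Csnk1d, which encodes a kinase of the PER proteins, were called higher. Btrc, which marks PER for degradation, was called lower. None of these 4 kept its call whichever library was omitted. Their highest adjusted p was 0.104, 0.121, 0.136 and 0.0909 in that order (edgeR), without TRACK 1, TRACK 2, TRACK 2 and TRACK 3. The call of Bhlhe41 was lost without any of WT 1, 2 and 3 or TRACK 1, 2 and 3. That of Cipc was lost without WT 1 or 4 or any TRACK library. That of Csnk1d was lost without WT 1 or 5 or TRACK 1 or 2. That of Btrc was lost without WT 1, 3 or 5 or any TRACK library.

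In GCERAdT against GCERAd 16 were tested, 2 were called higher (all genes: 9.39%) and 6 lower (all genes: 9.79%), with a median of -0.17. Dbp was at -3.29 (0.22, adjusted p = 4.78e-06, edgeR), Ciart at -3.14, Usp2 at -1.46, Tef at -1.37, Hlf at -0.52 and Cipc, a CLOCK-binding repressor, at -0.40. Nfil3 was higher by 1.79 (0.24, adjusted p = 0.000743, edgeR). Csnk1e, which encodes another kinase of the PER proteins, was higher by 0.51, but its call was lost without GCERAd 2 or 3 or GCERAdT 1 or 2 (highest adjusted p = 0.0834, edgeR). With the library number as a block, Bhlhe40 was called as well (log2 fold change -0.44, adjusted p = 0.00861, edgeR). So was Fbxw11 (-0.20, adjusted p = 0.0465, edgeR).

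Whether the ATF4 KO label went with another difference in the TRACK background than outside it was tested over all 17 samples. WT, the only group without Ddx3y, is part of this difference, so that sex and background cannot be told apart in it. Of 17 genes tested, 1 was higher (all genes: 12.3%) and 9 lower (all genes: 12.8%), with a median of -0.56 beside 0.02 over all genes. The difference was -5.91 for Ciart (0.6, adjusted p = 3.09e-06, edgeR), -4.29 for Dbp (0.26, adjusted p = 8.6e-09, edgeR), -2.34 for Tef (0.09, adjusted p = 3.86e-11, edgeR) and -2.28 for Usp2 (0.14, adjusted p = 6.14e-09, edgeR) on the log2 scale. Nfil3 had the one positive difference, of 2.58 (0.33, adjusted p = 3.83e-05, edgeR). All 10 calls were kept whichever library was omitted. Rora was at 52.6 to 62.1 CPM in WT and at 82.2 to 103 CPM in all other groups, so that its difference of -0.72 came with like levels in GCERAd, TRACK and GCERAdT.

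**Figure D4:**
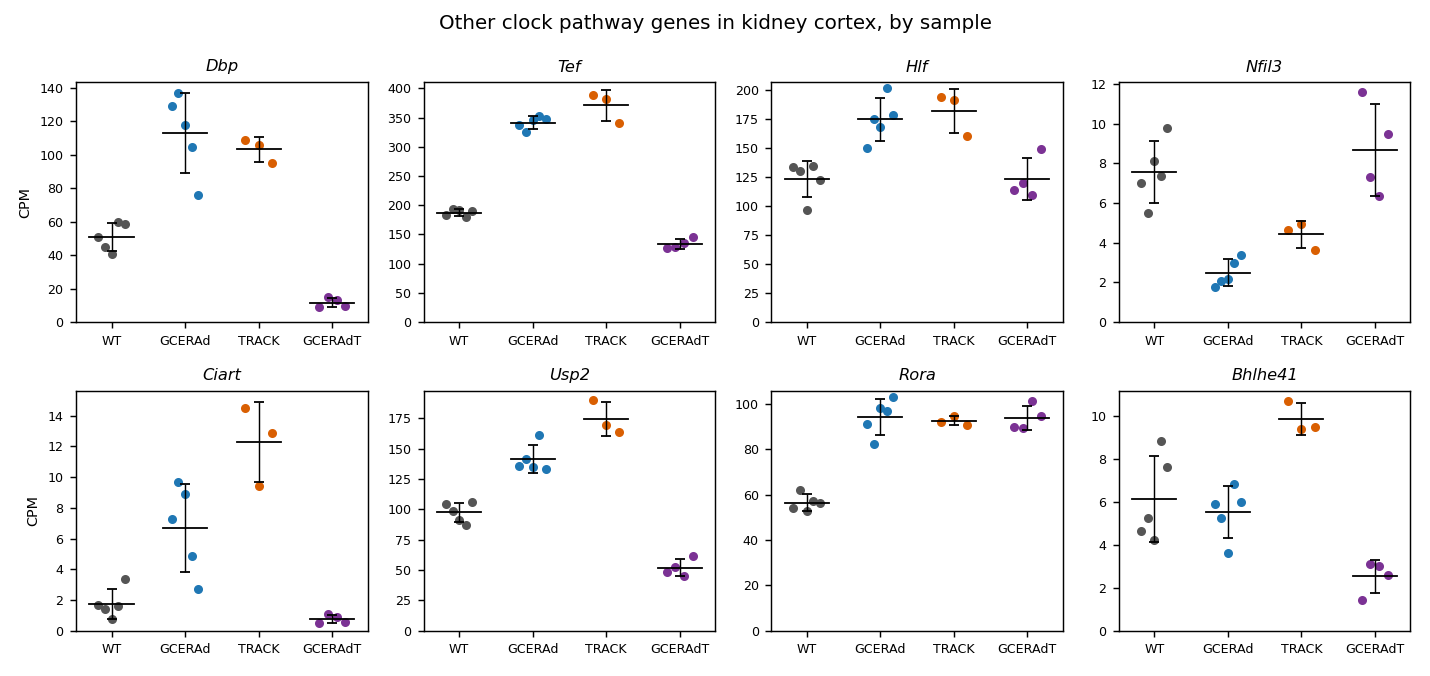
CPM (TMM-scaled, linear axes from 0) of 8 other clock pathway genes in each sample (points) of the 4 groups, with group mean (line) and SD (bar). Dbp is at 9.01 to 15.1 CPM in GCERAdT and at 95 to 109 CPM in TRACK, and Rora is lower in WT (52.6 to 62.1 CPM) than in the other groups.

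Outside both lists, the genes most like 3 of the members were taken by Pearson's r of log2(CPM + 0.5) over the 17 samples among 12208 genes, as a description in which the points of a group share its genotype. Most like Arntl were Dtx4 (r = 0.932), Ncald (0.91), Cldn1 (0.906), Tgfb2 (0.902) and Wdfy1 (0.897). Wdfy1 had means of 61.4 ± 3.45 CPM in WT, 13.8 ± 3.29 CPM in GCERAd, 12.3 ± 1.06 CPM in TRACK and 61.4 ± 19.8 CPM in GCERAdT. Within groups, after taking off each group's mean, r with Arntl was 0.73 for Dtx4 and -0.1 for Ncald. Most like Per2 were Inpp5b (0.948), Tsku (0.942), Pcbp3 (0.932), Alas1 (0.931) and Ttc7 (0.929). Alas1, the rate-limiting enzyme of heme synthesis, whose product is the ligand of the REV-ERB receptors, had means of 124 ± 8.98, 204 ± 56.6, 316 ± 38.4 and 98.3 ± 18.1 CPM in WT, GCERAd, TRACK and GCERAdT. Tsku had 6.1 ± 1.32, 27.4 ± 7.67, 29.1 ± 4.02 and 3.79 ± 0.692 CPM in the same order. Most like Nr1d1 were Gfra1 (0.93), Slc6a20a (0.919), Rnf215 (0.898), Gpr89 (0.896) and Hpd (0.894). Hpd, an enzyme of tyrosine breakdown, had means of 366 ± 97.0 CPM in WT and 80.4 ± 63.6, 20 ± 5.32 and 10.8 ± 3.12 CPM in GCERAd, TRACK and GCERAdT.

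Markers of other cell types also differed between the groups. The summed level of 3 endothelial markers was 159 to 191 CPM in WT, 187 to 212 CPM in GCERAd, 298 to 330 CPM in TRACK and 255 to 278 CPM in GCERAdT, and that of 4 collecting duct principal cell markers was 881 to 1004, 354 to 597, 482 to 548 and 341 to 502 CPM. All of these markers had counts in every library. The 3 skeletal muscle markers summed to 3.45 to 10.4 CPM in WT and at most 0.46 CPM elsewhere. The WT sum was nearly all Myh1 (3.38 to 10.4 CPM). In WT, Ckm was at 0 CPM and Acta1 at most 0.0743 CPM, whereas Acta1 reached 0.35 CPM in TRACK. The 4 adipocyte markers summed to 36.9 to 99.2 CPM with overlap between all groups. The proximal tubule sum of 5197 to 6038 CPM in GCERAdT overlapped that in TRACK. The part of cell composition in the clock genes' levels was not tested.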

How the data were processed

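RNA-seq libraries (TruSeq Stranded mRNA) were made from kidney cortices. The authors deposited raw counts per gene, without normalization, from Cutadapt (trimming), STAR (alignment to GRCm38) and HTSeq-count. The annotation release and strand setting are not given in the sources used here. Groups came from the sample labels. The members, the lists and the tests were chosen with earlier results of these data known. The text names all 10 members, those of the 21 other clock pathway genes that were called in a comparison (1 further gene of that list is not reported here), the 5 genes most correlated with Arntl, Nr1d1 and Per2, and Atf4, Xist and Ddx3y as checks. Fkbp5, Tsc22d3 and Thra were added after their values were seen.

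The counts were tested with edgeR 4.0.16 in R 4.3.3 (TMM, quasi-likelihood test, Benjamini-Hochberg adjustment over all genes tested, threshold 0.05), with DESeq2 1.42.0 as an alternative. Genes were tested at a mean FPKM of at least 1 in a group of the comparison, with merged exon lengths from GENCODE M21 (48435 genes had a length and 360 had none). CPM were scaled by TMM over all 17 samples, and 0.5 CPM was added before logs. Groups were fitted 2 at a time, and all 4 together for the difference between contrasts. Standard errors are the log2 fold change over the root of the F statistic. The procedure was tested on simulated data. p-values measure the spread between these samples, which may in part be repeat libraries. Deviations of same-numbered libraries from their group means correlated at 0.393 to 0.556 over genes in all 4 pairs of GCERAdT and GCERAd. In each of these pairs both libraries were of the same kind by pseudogene share. A pairing by number and a shared library kind therefore cannot be told apart, and the labels name no shared litter or day. The numbers were used as a block only as an alternative. In the other comparisons the numbers did not pair the samples. Alternatives were DESeq2, RLE scaling, other FPKM minimums or none and 1 fit of all samples. The replicate block, other pseudocounts, medians and the omission of single libraries were further ones. Library kind, the summing of possible repeat libraries (for CPM, their mean) and leaving out GCERAd 1, 2 and 3 or 4 and 5 were added after seeing the data.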

Additional observations from a re-analysis of the deposited data

Results flagged for a closer look

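Of 93 sets of 4 or 5 values (10 members and 21 other clock genes in WT, GCERAd and GCERAdT), 5 held a sample far from the others, where chance gives about 1 in 20. Arntl was at 6.84 CPM in WT 2, beside 9.58 to 10.5 CPM in the other WT libraries. Cry1 was at 3.71 CPM in WT 5, beside 2.34 to 2.5 CPM. Nr1d1 was at 51.2 CPM in GCERAdT 3, beside 61.4 to 62.4 CPM. Fbxl21 was at 3.87 CPM in GCERAdT 4, beside 2.89 to 3.03 CPM. Usp2 was at 161 CPM in GCERAd 4, beside 133 to 141 CPM.

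The log2 difference between the ATF4 KO contrast in the TRACK background and outside it passed the edgeR test for 10 other clock genes: Ciart (-5.91), Dbp (-4.29), Tef (-2.34), Usp2 (-2.28), Bhlhe41 (-1.81), Hlf (-1.07), Rora (-0.72), Cipc (-0.64), Fbxw11 (-0.54) and Nfil3 (2.58). Of these genes, Bhlhe41 passed the FPKM minimum only through TRACK. For 6 members every GCERAd sample lay on one side of WT and every GCERAdT sample on the opposite side of TRACK. Their differences of log2 fold changes were 3.89 for Arntl, 3.90 for Npas2, -4.12 for Per2, -2.56 for Per3, -2.07 for Cry2 and -1.18 for Nr1d2. These 6 differences were not tested, since the genes were chosen with the values known. All differences in this paragraph include WT, the only group without Ddx3y, so that sex and background cannot be told apart in them.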

How the results depend on the processing

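The number of members whose groups did not overlap stayed within 1.5 times its value under RLE scaling and without TMM factors. Omitting or averaging libraries cannot close a gap between groups and was not read as a sign of stability. The order of the 4 groups was kept for all 10 members with a pseudocount of 0.1 CPM or RLE scaling and for 8 with medians, where Per1 and Nr1d1 changed order. Under the alternatives run, no log2 fold change turned its sign for a member whose groups were apart or for a called other clock gene. Omitting single libraries, the other clock genes called were 8 to 9 for GCERAd against WT and 5 to 10 for GCERAdT against TRACK. They were 8 to 12 for TRACK against WT and 7 to 9 for GCERAdT against GCERAd. For the difference between the contrasts they were 10 to 11. Only the 9 libraries of the higher pseudogene share, with 1 WT library among them, gave 2, 5, 6, 5 and 7 calls in the same order; a lone library is assumed there to vary like the other groups. With library kind as a covariate, GCERAdT against TRACK gave 5 calls. With the replicate block the calls were 8, 8, 8, 10 and 10 in that order. In the first 3 comparisons the libraries share only a number. The block there ended the call of Nfil3 in GCERAdT against TRACK. It also ended those of Nfil3, Cipc, Csnk1d, Btrc and Fbxw11 in TRACK against WT, and added Bhlhe40 in the latter. The cause was not tested. Every member had at least 76 counts in each sample, and TRACK had 3 libraries.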
